A study of Homo sapiens with 2 samples.

Results

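The hnRNP A, B and D genes encode abundant nuclear RNA-binding proteins. Their transcripts were examined here for crosslink sites of Musashi-2 (MSI2) in NB4 cells, a line established from a human acute promyelocytic leukaemia. The members are 7 genes chosen by Ensembl gene ID, namely HNRNPA0 (ENSG00000177733), HNRNPA1 (ENSG00000135486), HNRNPA2B1 (ENSG00000122566), HNRNPA3 (ENSG00000170144), HNRNPAB (ENSG00000197451), HNRNPD (ENSG00000138668) and HNRNPDL (ENSG00000152795). Every peak listed under these IDs was taken. They had 82 of the 25920 peaks of replicate 1 and 69 of the 25243 peaks of replicate 2, and they are 7 of the 8801 gene IDs with a peak in either library. Both libraries form 1 group: 25000000 NB4 cells each, irradiated with ultraviolet light at 400 mJ per square centimetre, from which RNA bound to MSI2 was recovered with an anti-MSI2 antibody (CLIP-seq). The labels do not say whether the replicates came from separate cultures. No control antibody, input RNA, MSI2-depleted cells or expression level was analysed here, so the values below describe what was recovered with MSI2 and cannot separate its binding from the abundance of each transcript or from repeatable background.

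Proteins of this family and the Musashi proteins share a layout: a pair of RNA recognition motifs side by side, each of which can grip a few bases of single-stranded RNA. Musashi proteins and hnRNP A1 and A2/B1 are all known to bind short RNA elements around UAG. The hnRNP A proteins are best known for splice site choice, packaging of nascent RNA and RNA transport, and hnRNP D, also called AUF1, for binding AU-rich elements and controlling mRNA decay. Several of these proteins are known to regulate splicing of their own transcripts.

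Each deposited peak has a p-value given by the authors and a name that ends in a whole number. That number, called the tally here, was at least 3 in every peak and is not explained by a header or label. The tally tracks the p-value and is treated as if it were a number of reads. Summed over the lists it came to 155598 in replicate 1 and 133644 in replicate 2. These sums are not the sequencing depth, which is unknown. The span of a gene means the stretch from its first to its last peak in either library, and positions are hg19, counted from 1. Sequences are not shown, because no genome of this build was used here, and for the same reason exons, introns and untranslated regions are not assigned.

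HNRNPA2B1 carried the most peaks and the highest tally of the family, followed by HNRNPD, while HNRNPAB had almost none. HNRNPA2B1 had 21 peaks in each library, with a summed tally of 315 in replicate 1 and 236 in replicate 2. HNRNPD had 15 peaks in each, with summed tallies of 178 and 172. HNRNPDL had 14 and 12 peaks and tallies of 111 and 64. HNRNPA1 came next with 10 and 5 peaks and tallies of 84 and 46. HNRNPA3 had 11 and 6 peaks and tallies of 61 and 25, and HNRNPA0 had 8 peaks in each library and tallies of 55 and 36. HNRNPAB closed the order with 3 and 2 peaks and tallies of 11 and 9. Among all gene IDs of each list, HNRNPA2B1 ranked 4 by summed tally in replicate 1 and 14 in replicate 2. HNRNPD ranked 36 and 33. HNRNPDL lay within the upper 2.00% and 5.44%, whereas 51.4% and 54.9% of gene IDs had at least the tally of HNRNPAB. All 7 genes had peaks in both libraries, as did 63.1% of all gene IDs. All 7 also had the higher summed tally in replicate 1, against 58.4% of the 5552 gene IDs found in both lists, and the sum of that whole list was itself higher. The ratio of replicate 1 to replicate 2 was 2.44 for HNRNPA3 and 1.83 for HNRNPA1 but 1.03 for HNRNPD.

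Set against the length of the span, the order of the members was the same in both libraries. HNRNPA2B1 had a tally of 44.4 and 33.3 per kb of span, above every other member in both. HNRNPA0 followed with 20.1 and 13.2, HNRNPA1 with 19.8 and 10.8 and HNRNPDL with 18.1 and 10.5. The ranges of HNRNPA0, HNRNPA1 and HNRNPDL over the libraries overlapped each other, so their order is within that spread. HNRNPD, spread over a span of 21.2 kb, had 8.38 and 8.09 per kb, the closest agreement in the family. HNRNPA3 had 7.38 and 3.03 and HNRNPAB had 2.39 and 1.95. The ranges of HNRNPD, HNRNPA3 and HNRNPAB each overlapped no other member's. A span can include introns, which were not assigned here, so this density can depend on gene structure as well as on recovery. Dividing by the summed width of the sites gave another order that was not the same in both libraries, given in the closing section. The place of HNRNPA1 rests on a site that another gene ID shares, described below: without it, HNRNPA1 had 12.9 and 4.94 per kb, under HNRNPDL in both libraries and under HNRNPD in replicate 2. With 2 libraries of 1 group no test between members was made.

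**Figure D1:**
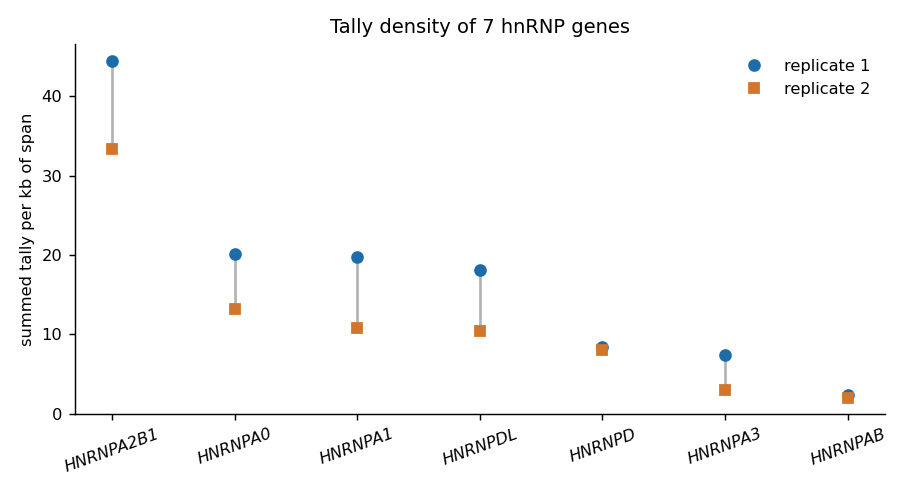
Summed tally per kb of span (vertical axis) for each of the 7 genes, with replicate 1 as circles, replicate 2 as squares and a line joining them. HNRNPA2B1 lies above the rest at 44.4 and 33.3, and HNRNPAB lies lowest at 2.39 and 1.95.

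HNRNPA2B1 encodes hnRNP A2 and its splice form B1, which bind UAG-containing RNA in splicing and RNA transport. Its peaks, on the minus strand of chromosome 7 from 26229990 to 26237078, fell into a pair of blocks separated by 2.15 kb without a peak. The 3' block, from 26229990 to 26233317, held 179 of the tally in replicate 1 and 143 in replicate 2. The 5' block, from 26235465 to 26237078, held 136 and 93. The gene's tally was therefore divided similarly in the libraries, with 56.8% and 60.6% in the 3' block. Within that block a tight run of sites began at chr7:26231482-26231550, with tallies of 31 in replicate 1 and 16 in replicate 2. It touched chr7:26231551-26231618, the strongest peak of the gene in each library, with tallies of 33 and 25 and deposited p-values of 2.23e-20 and 5.63e-16. The run went on with chr7:26231646-26231712, at 29 and 22, and chr7:26231896-26231955, at 21 and 19. In the 5' block the site at chr7:26236020-26236069 had tallies of 14 and 21, and chr7:26236559-26236622 had 23 and 12. The other sites with a tally of 10 or more in each library were chr7:26233191-26233275 in the 3' block, with 15 and 20, and 4 in the 5' block. Of these, chr7:26235465-26235532 had 22 and 17 and chr7:26236177-26236217 had 16 and 10. The remaining pair, chr7:26236070-26236099 and chr7:26236459-26236505, had 11 and 10 each. No single site dominated: the highest peak held 10.5% of the gene's tally in replicate 1 and 10.6% in replicate 2.

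Of the 18 sites in the family with a tally of 10 or more in each library, HNRNPA2B1 held 11. A site here means a run of overlapping peaks of 1 gene over both lists, with its tallies summed. The gene also held strong peaks without a partner that lay close to a peak of the other list. A 15 nt peak at chr7:26236623-26236637 with a tally of 20 in replicate 1 lay 5 nt from a replicate 2 peak, and a peak at chr7:26231737-26231771 with a tally of 11 in replicate 2 lay 24 nt from a replicate 1 peak. Both nearby peaks belonged to sites described above, chr7:26236559-26236622 and chr7:26231646-26231712, so each already had another partner. At the 5' end, the site at chr7:26236935-26236979 had a tally of 19 in replicate 1 and 5 in replicate 2.

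HNRNPA1 encodes the best studied member, a splicing repressor that also shuttles mRNA to the cytoplasm. Its pattern differed from that of HNRNPA2B1 in that 1 site held a large part of the tally. This site, chr12:54678565-54678650 on the plus strand, had the same start and end in both lists, with tallies of 29 and 25 and p-values of 3.71e-21 and 2.18e-20. It made up 34.5% of the gene's tally in replicate 1 and 54.3% in replicate 2. Identical intervals were rare, with 46 over the whole lists. The site is not cleanly assigned to HNRNPA1: another gene ID on the same strand, ENSG00000258344.1, had a peak in each list inside it, at 54678592 to 54678642 with a tally of 27 in replicate 1 and at 54678595 to 54678648 with a tally of 24 in replicate 2. Which transcript these fragments came from cannot be told apart. Without this site the summed tally of HNRNPA1 was 55 in replicate 1 and 21 in replicate 2. The next site downstream, chr12:54678667-54678713, had tallies of 11 and 4, and chr12:54678965-54679017 had 9 and 4. Upstream, chr12:54677595-54677642 had 7 and 8, and chr12:54676980-54677019 had 7 and 5. All 5 peaks of replicate 2 had a partner in replicate 1, and the 4 other sites of replicate 1 had tallies of 8 or less.

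HNRNPA1 and HNRNPA3 have many processed copies in the genome, with 75 pseudogenes of HNRNPA1 and 17 of HNRNPA3 named in the RefSeq annotation of GRCh38.p14, against 5, 2, 1 and 0 for HNRNPDL, HNRNPD, HNRNPAB and HNRNPA2B1. The handling of reads that match several places is unknown here, so the tallies of HNRNPA1 and HNRNPA3 are uncertain in both directions.

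HNRNPA3 encodes a close relative of hnRNP A2 that takes part in RNA transport in the cytoplasm. It had low, scattered sites. Its strongest, chr2:178086841-178086901 on the plus strand, had tallies of 10 in replicate 1 and 8 in replicate 2. The next, chr2:178085603-178085691, had 8 and 5. The other 3 sites found in both libraries, chr2:178081428-178081481, chr2:178084132-178084185 and chr2:178087768-178087820, each had 6 and 3. So 5 of the 6 peaks of replicate 2 lay on a replicate 1 peak, although none of them had a tally over 8. The running numbers in the peak names skip 3 values for HNRNPA3 in replicate 2 and none in replicate 1. For HNRNPDL they skip 1 value in each library. What carried those numbers was not analysed here, and their part in the lower count of HNRNPA3 in replicate 2 was not tested.

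HNRNPA0 encodes the member that binds AU-rich elements of inflammatory mRNAs. Its peaks lay within 2.73 kb on the minus strand of chromosome 5. The site at chr5:137088359-137088452 had tallies of 12 in replicate 1 and 15 in replicate 2, where it was a pair of touching peaks. The site at chr5:137087951-137088002 had 12 and 4, and chr5:137087769-137087799 had 4 in each. Summed over all sites, the tally upstream of the largest gap in the span was 3 in replicate 1 and 13 in replicate 2. Downstream of it, with the 3 sites just given included, it was 52 and 23. Every other downstream site was listed in replicate 1 alone. Of 5 upstream sites none was found in both libraries. HNRNPA0 thus recurred at 3 of its 12 sites.

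HNRNPD encodes hnRNP D, or AUF1, which marks AU-rich mRNAs for decay or stabilises them. It held the strongest site of the family in both libraries. This site, chr4:83274982-83275117 on the minus strand, had tallies of 56 in replicate 1 and 46 in replicate 2, with deposited p-values of 8.68e-40 and 1.70e-33. It lay 1.24 kb from the 3' end of the span and held 31.5% and 26.7% of the gene's tally. A smaller site at chr4:83275170-83275218, with tallies of 9 and 10, lay just upstream of it. Further upstream were chr4:83280623-83280792, with 28 and 30 over a pair of touching peaks in each list, and chr4:83277953-83278049, with 24 and 19. A gap of 6.46 kb without a peak followed.

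Upstream of that gap, HNRNPD showed the reverse balance between the libraries. The site at chr4:83292680-83292737 had a tally of 9 in replicate 1 and 18 in replicate 2. The sites nearest the 5' end, chr4:83294732-83294824 and chr4:83295018-83295059, had 5 and 11, and 3 and 7. Summed over the 7 sites upstream of the gap the tally was 21 in replicate 1 and 50 in replicate 2, while the 11 sites downstream summed to 157 and 122. The near equality of the whole gene's tally, 178 and 172, therefore combined a part with more tally in replicate 1 and a part with more in replicate 2. This split was noticed in the data, and 1 library each leaves no test of it.

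HNRNPDL encodes hnRNP D-like, a relative of AUF1 that acts in transcription and alternative splicing. It lies next to HNRNPD on the same strand: their spans were 49.4 kb apart, and the annotation of GRCh38.p14 places 3 genes and no protein-coding one between them. The members differed in layout, since HNRNPDL had 18 sites in 6.12 kb and its highest peak held 15.3% and 15.6% of its tally. Its site at chr4:83345836-83345939 had tallies of 17 in replicate 1 and 10 in replicate 2, where it was 2 peaks. The site at chr4:83348345-83348415 had 11 and 10 and was the strongest peak of replicate 2. Sites at chr4:83344425-83344505, with 12 and 7, and chr4:83347616-83347715, with 12 and 6, were also found in both. A peak of 7 nt, chr4:83348452-83348458, had the same bounds in both lists with tallies of 5 and 3. A peak at chr4:83344974-83345024 with a tally of 11 in replicate 1 lay 140 nt from the nearest replicate 2 peak, and at the 5' end chr4:83350437-83350548, with a tally of 9, was listed in replicate 2 alone.

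HNRNPAB encodes hnRNP A/B, a member linked to both transcription and RNA binding. It had 3 peaks in replicate 1, with tallies of 3, 3 and 5, and 2 peaks in replicate 2, with tallies of 4 and 5. None overlapped: the replicate 1 peak with a tally of 5 lay at chr5:177632901-177632958 and the replicate 2 peak with a tally of 5 at chr5:177636373-177636428, 3.41 kb downstream. It was the only member without a recurrent site. With tallies at or near the minimum that the lists hold, recovery of its transcript at a fixed site was not detectable in these libraries.

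**Figure D2:**
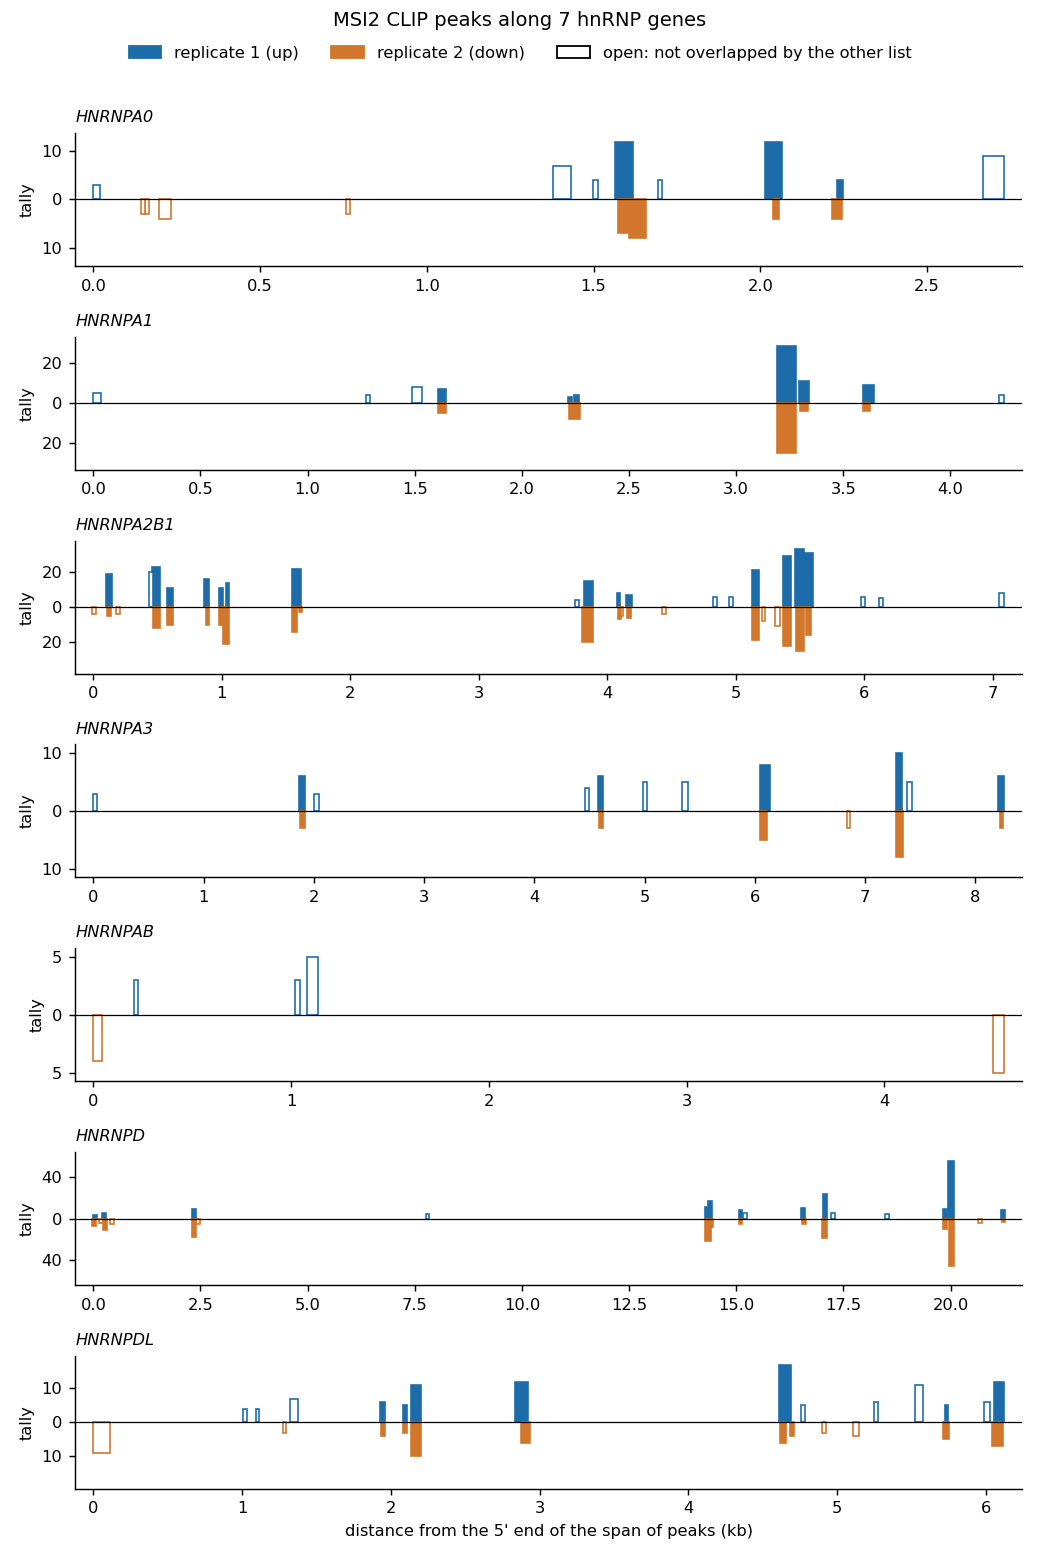
Peaks along each gene, with distance from the 5' end of the span in kb on the horizontal axis (a scale of its own for each gene) and the tally on the vertical axis, replicate 1 upward and replicate 2 downward. Filled bars are peaks overlapped by the other list, open bars are not, and very narrow peaks are drawn wider than they are. HNRNPA2B1 shows a pair of blocks and HNRNPAB open bars alone. The highest bars of HNRNPA1 are at the site that another gene ID shares, and HNRNPD has other strong sites besides its highest.

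Pooled over the 7 genes, peaks recurred more often than in the lists as a whole, and they also had higher tallies. In replicate 1, 46 of 82 peaks, or 56.1% (exact 95% binomial interval 44.7% to 67.0%), were overlapped by at least 1 nt on the same strand by a replicate 2 peak, against 35.7% of all peaks. In replicate 2 it was 48 of 69, or 69.6% (57.3% to 80.1%), against 37.3% of all peaks. The intervals cover counting error only, and peaks of 1 gene are not independent. The genes differed: 14 of 21 peaks in replicate 1 and 15 of 21 in replicate 2 recurred in HNRNPA2B1, and 11 of 15 in each in HNRNPD. In HNRNPDL it was 7 of 14 and 8 of 12, in HNRNPA1 6 of 10 and 5 of 5, and in HNRNPA3 5 of 11 and 5 of 6. HNRNPA0 had 3 of 8 and 4 of 8, and HNRNPAB 0 of 3 and 0 of 2. HNRNPA2B1 and HNRNPD also supplied the most peaks. The members' peaks had a median tally of 7 and 5, against 4 in each full list, and 34.1% and 29.0% of them reached a tally of 10, against 13.2% and 9.53%. Given the members' own mix of tallies, all peaks of the lists would have been shared at 54.7% and 54.8%. This is close to the 56.1% of replicate 1 and below the 69.6% of replicate 2. The exact interval of replicate 1, 44.7% to 67.0%, contained that value, while that of replicate 2, 57.3% to 80.1%, lay above it. Neither interval allows for the dependence of peaks within a gene. With a tally of 10 or more, 26 of 28 member peaks in replicate 1 and 19 of 20 in replicate 2 recurred, against 87.1% and 89.4% of all peaks of that tally. With a tally of 5 to 9, 16 of 35 (45.7%) and 17 of 23 (73.9%) recurred, against 47.6% and 57.4%, and with a tally of 4, 2 of 12 (16.7%) and 6 of 14 (42.9%), against 24.7% and 34.7%. In these classes the members' share was below that of all peaks in replicate 1 and above it in replicate 2. The exact intervals were 28.8% to 63.4% and 51.6% to 89.8% for a tally of 5 to 9, and 2.09% to 48.4% and 17.7% to 71.1% for a tally of 4. Each contained the share of all peaks, so no direction is established. With a tally of 3 the members' share was 2 of 7 and 6 of 12, against 11.9% and 15.5%. Here the exact intervals were 3.67% to 71.0% and 21.1% to 78.9%. The first contained the share of all peaks, and the second, from 12 peaks, lay above it. These counts are too small to place the share of members more closely. Of the 7 genes, 6 had a peak of replicate 1 with a partner, against 45.5% of all gene IDs.

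**Figure D3:**
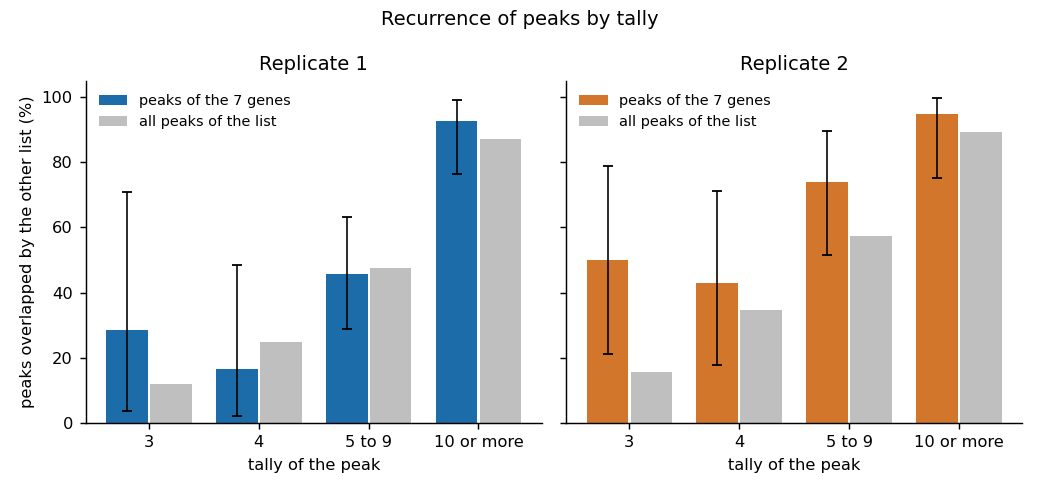
Percentage of peaks overlapped by a peak of the other list (vertical axis) by tally class, for the 7 genes (coloured, with exact 95% binomial intervals) beside all peaks of the list (grey), in replicate 1 on the left and replicate 2 on the right. In both libraries the share is highest at a tally of 10 or more, with 26 of 28 and 19 of 20 member peaks, against 87.1% and 89.4% of all peaks.

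The peaks of both lists formed 101 sites, of which 44 (43.6%) had peaks in both libraries, against 21.6% of the 41635 sites of all gene IDs. Another 36 were found in replicate 1 alone and 21 in replicate 2 alone. These shares of sites were not matched for tally, and the members' peaks had higher tallies than the full lists, as given above. The recurrent sites held 615 of the members' tally of 815 in replicate 1 and 490 of 588 in replicate 2, that is 75.5% and 83.3%. Of 31 sites with a tally of 10 or more in at least 1 library, 28 were found in both, and of the other 70, 16 were. Among all peaks with a tally of 10 or more, 87.1% recurred in replicate 1 and 89.4% in replicate 2. Sites of all gene IDs were not counted by tally, so these counts describe the members only. At the recurrent sites, the centres of the inner intervals deposited with the strongest peak of each list lay a median of 5 nt apart. In 30 of the 44 the centres lay within 10 nt. Recurrent sites are chosen by overlap, which itself brings centres close. Neither these distances nor the tallies of recurrent sites were compared with those of all gene IDs. The largest distance between centres, 107 nt, was at the HNRNPD site built of 2 touching peaks in each list. Tallies of the 44 sites had a Pearson r of 0.77 between the libraries, taken on log2 tallies, and a Spearman rho of 0.74, as a description over sites that share libraries and genes. Replicate 1 had the higher tally at 33 sites, the lower at 9, and an equal one at 2. The median log2 ratio of replicate 1 to replicate 2 was 0.39, against 0.22 for the sums of the full lists.

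**Figure D4:**
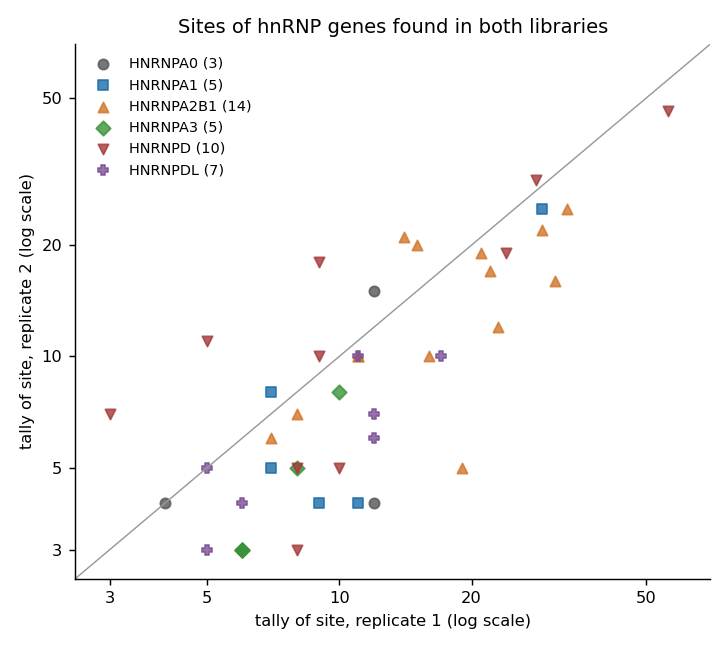
Tally in replicate 1 (horizontal axis, log scale) and in replicate 2 (vertical axis, log scale) of the 44 sites found in both libraries, by gene with the number of sites in brackets, and the line of equal tallies. The HNRNPD site at 56 and 46 stands furthest to the upper right, and 33 sites lie below the line.

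Along their spans, the members differed in where the tally sat. Relative position was 0 at the 5' end of the span and 1 at its 3' end, each peak weighted by its tally. HNRNPA2B1 had a mean position of 0.47 in both libraries, where the median over the 1253 gene IDs with at least 5 peaks in each list and a span of at least 1 kb was 0.74 in replicate 1 and 0.71 in replicate 2. Only 9.82% and 12.9% of those gene IDs lay as far to the 5' side. HNRNPD had 0.76 and 0.61, HNRNPDL 0.64 and 0.54, and HNRNPA0 0.66 and 0.46, all nearer the 5' end in replicate 2. HNRNPA1, with 0.63 and 0.69, and HNRNPA3, with 0.64 and 0.74, lay nearer the 3' end in replicate 2. So 3 of the 6 members with enough peaks lay nearer the 5' end in replicate 2, against 59.4% of these gene IDs, and a shift between the libraries was no common feature of the family. The 3'-most 10% of the span held 41.0% and 36.6% of the tally in HNRNPD. It held 30.6% and 18.8% in HNRNPDL and 2.54% and 0% in HNRNPA2B1. Their spans were 21.2, 6.12 and 7.09 kb, so 10% of the HNRNPD span covers a longer distance. The tight run of HNRNPA2B1 sites lay 1.53 to 1.94 kb from the 3' end of its span, against 1.24 kb for the strongest HNRNPD site. These shares therefore depend on the length of the span, and they were not compared with all gene IDs.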

How the data were processed

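The lists of MSI2 CLIP-seq peaks from NB4 cells were used as deposited, 1 list for each of 2 replicates. Reads had been processed against hg19 with STAR 2.3.0e, Bowtie 1.0.0 and cutadapt, per the submitters' processing notes, which give no roles or order. The peak caller and any correction for multiple testing are unknown here. The authors deposited a p-value with every peak, and it served only to order peaks of the same list or to choose a stricter list. The deposited names hold the gene ID, a running number and the tally. The 7 members and all choices were made with earlier results of these data known. All peaks of the members are covered, and the peaks printed in full are the strongest of each gene and library, the sites with a tally of 10 or more in both, the strong peaks without a partner, and other recurrent sites needed to describe a gene. The other hnRNP and Musashi-like genes were not analysed here, because no table pairing the Ensembl IDs of these files with symbols was used. The overlap calculation was tested on simulated data with planted overlaps. Density, position and splits at gaps were chosen after seeing the data. Alternatives covered the overlap rule, stricter lists, merged peaks, intervals under several IDs and each library alone. The software was SciPy 1.17.1, pandas 2.3.3, NumPy 2.4.6 and matplotlib 3.10.9 under Python 3.11.15.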

Additional observations from a re-analysis of the deposited data

How the results depend on the processing

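Of 35 recomputed values for the members and the position background, 33 stayed within the margin set for them. That margin allowed large changes, so this count is no measure of stability. Restricting the lists to a tally of 5 or more left 33 shared member peaks in replicate 1 (main value 46). For replicate 2 it left 34 (main value 48). The shares became 52.4% (main 56.1%) and 79.1% (main 69.6%), and the mean number of member peaks per library 53 (main 75.5). All of these counted as within the margin. A reciprocal overlap of 50%, in place of 1 nt, lowered the share of member peaks with a partner to 42.7% in replicate 1 and 50.7% in replicate 2, which follows from the stricter rule. These shares left the margin, although the shared peaks behind them, 35 per library, counted as within it. Leaving out 1 replicate in turn gave 69 to 82 peaks and a summed tally of 588 to 815 for the members. Leaving out the HNRNPA1 peaks that another gene ID overlaps, chosen after seeing the data, lowered the mean summed tally per library to 674.5, against 701.5 with them, but it took HNRNPA1 itself to 55 and 21, against 84 and 46, and changed its place in the order by density. Divided by the summed width of the sites in place of the span, HNRNPD had a tally of 0.167 and 0.162 per nt and passed HNRNPA0 (0.140 and 0.0916) and HNRNPDL (0.126 and 0.0729), and HNRNPA1 (0.218 and 0.119) also passed HNRNPA0. This order differed between the libraries: HNRNPD lay below HNRNPA1 in replicate 1 and above it in replicate 2, and HNRNPAB (0.055 and 0.045) lay below HNRNPA3 (0.109 and 0.0446) in replicate 1 and just above it in replicate 2. HNRNPA2B1 (0.337 and 0.252) was above the other members in both. The HNRNPA1 values include the site that another gene ID shares, and its place in this order was not recomputed without that site. No paired analysis was possible because there is 1 group. With unknown depth and many tallies near the minimum of 3, a site found in 1 library alone is no evidence of a difference.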

Other observations

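Some member peaks were far narrower than a typical peak. Peaks of 10 nt or less made up 10 of the 82 member peaks in replicate 1 and 8 of the 69 in replicate 2, or 12.2% and 11.6%, against 6.03% and 8.55% of all peaks. In HNRNPA2B1 a single base, chr7:26232115-26232115, was listed as a peak with a tally of 6 in replicate 1, and chr7:26232238-26232241 also had 6. Both lacked a replicate 2 peak. Among narrow peaks of HNRNPDL, the 7 nt one at chr4:83348452-83348458 was listed with identical bounds in both libraries. The sites of a gene together covered between 4.34% of the span, in HNRNPAB, and 14.4%, in HNRNPA0.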
